A study of Sus scrofa with 6 samples.

Results

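The miR-362, miR-500, miR-532 and miR-660 hairpins belong to a group of microRNAs (miRNAs) that sit close together on the X chromosome of placental mammals. The group was described in small RNA libraries of cultured Sertoli cells of the fetal pig, which support germ cells inside the tubules of the testis. Entries were taken by name, as those of miR-188, miR-362, miR-500, miR-501, miR-502, miR-532 and miR-660 with or without an arm. This rule found 6 entries of the 1645 in the deposited table: miR-362, miR-500-5p, miR-500-3p, miR-532-5p, miR-532-3p and miR-660. They stand for 4 of the 7 hairpins; miR-188, miR-501 and miR-502 were not analysed here.

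The cells are labelled immature Sertoli cells from testes of 80 to 90 days of gestation, grown in medium with 10% serum. The 3 AA2P libraries are of cells that were seeded, cultured for 6 h and then given 250 µM L-ascorbic acid 2-phosphate (AA2P, as its sesquimagnesium salt hydrate), a stable derivative of vitamin C. The 3 control libraries are of the same kind of cells without treatment. The comparison asked which miRNAs changed with AA2P. Whether the 3 libraries of a group are separate cultures or animals is not stated, and p-values then cover the spread between these samples alone, which may be technical.

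A miRNA hairpin is cut from a longer transcript by Drosha and then by Dicer, and either of its arms, named 5p and 3p, can be loaded into an Argonaute protein to repress messenger RNAs. Hairpins of 1 cluster can share a primary transcript and still differ in mature level, since cutting, arm choice and the decay of mature strands can differ between them. In human, this cluster lies within introns of CLCN5, which encodes a chloride and proton exchanger of endosomes. In the pig RefSeq table (assembly Sscrofa11.1), MIR532, MIR500 and MIR362 follow each other on chromosome X with no other gene between them, after USP27X and before CLCN5, and none of them lies inside another annotated gene. MIR660 is not placed there, so the position of miR-660 in the pig was not checked. No coordinates are taken from that table, since the build behind the deposited values is not given in the sources used here.

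Values are in TPM, here reads scaled to a total that all libraries share, over known and predicted entries. From the step between low values, the AA2P libraries held 26.9, 36.0 and 32.5 mega-reads and the control libraries 25.8, 32.2 and 30.3 mega-reads. Each member therefore rested on at least 2026 reads per library, and counting error alone gave a coefficient of variation of at most 2.22%. The most abundant miRNA of the cells, miR-21-5p, took 37.0 to 44.1% of the TPM in the AA2P libraries and 51.3 to 53.0% in the control libraries. No miRNA defines Sertoli cells alone, so the cell label could not be checked by a defining marker. Of the marker lists, the gonadal somatic miRNAs (6 of 6 analysed) summed to 1214 to 1374 TPM with AA2P and 1143 to 1249 TPM in controls. Most of that was miR-140-3p, at 1109 to 1249 TPM with AA2P and 1048 to 1170 TPM in controls. In that list miR-202-5p, miR-202-3p and miR-212 reached at most 1.01 TPM, and miR-132 at most 5.4 TPM. The miRNAs of myoid and muscle cells (6 of 6) summed to 219 to 307 TPM with AA2P and 168 to 227 TPM in controls, mostly miR-1. Those of blood and endothelium (9 of 9) summed to 92.5 to 125.5 TPM with AA2P and 103 to 117 TPM in controls. Most of this last sum was miR-126-3p, at 83.6 to 107.9 TPM with AA2P and 95.9 to 108.6 TPM in controls, and miR-144 and miR-150 reached at most 0.11 TPM. miR-223 was at 5.4 TPM in AA2P replicate 1 and at most 0.06 TPM in the other libraries, and miR-486 at 1.92 to 3.16 TPM with AA2P and 3.13 to 4.09 TPM in controls. miR-142-3p was called higher with AA2P in the deposited TPM, as were 19.9% of all tested entries. It stood at 1.47 to 2.68 TPM with AA2P and 0.43 to 0.59 TPM in controls. Only the AA2P libraries reached the 1 TPM needed for a test, so the filter largely set the direction of that call. Also called higher was miR-34c, the 1 germ cell miRNA of 8 that was analysed, at 213 to 283 TPM with AA2P and 169 to 183 TPM in controls. The part of such cells in the results below was not tested.

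The 6 entries together were a minor share of the small RNA of these cells. They summed to 3176, 2851 and 3050 TPM in the AA2P libraries and to 2902, 2915 and 2607 TPM in the control libraries, with miR-188, miR-501 and miR-502 not included. That is 0.303% ± 0.0164 of a library with AA2P and 0.281% ± 0.0174 in controls (SD, n = 3 per group), and the groups overlapped. A single product, miR-532-5p, made up 74.3% ± 1.05 of that sum with AA2P and 75.9% ± 1.76 in controls. Since 1 entry carries most of the sum, the sum says little about the other 5. Without miR-532-5p the sum was 838, 751 and 749 TPM in the AA2P libraries and 680, 662 and 679 TPM in the control libraries. The groups did not overlap on this smaller sum, but 40.4% of single tested entries also separated as higher with AA2P. The smaller sum had a log2 ratio of group means of 0.21, while the median tested entry had a log2 fold change of 0.25. The smaller sum was not computed under other scalings, so whether the other 5 entries rose as a set was not tested.

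Of the 2 entries that changed with AA2P in the deposited TPM, neither passed under other scalings of the libraries. Of the 433 entries tested, 24.7% were called in either direction and 19.9% as higher with AA2P, by limma on log2(TPM + 1) at an adjusted p under 0.05. The excess of rises, 86 against 21 falls, was not kept by other scalings: there were 48 rises and 50 falls with trimmed-mean and with median-of-ratios scaling, 45 and 42 with quantile normalization, 40 and 43 with totals without miR-21-5p, and 52 and 36 with totals without the 10 most abundant entries. All 6 members passed the filter on low values, and 2 of them were called, miR-362 and miR-500-5p, both higher. In such bulk libraries, a change in the make-up of the culture and a change per cell cannot be told apart. At 6 members, 2 calls are close to that background and are no result about the cluster as such. In TPM the groups did not overlap for the same 2 members, both higher with AA2P, where 40.4% of all tested entries did so in that direction. The median log2 fold change was 0.08 over the members and 0.25 over all entries tested, and 4 members lay below 0.25.

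miR-362 is the member with a record in this cell type: earlier work in cultured pig immature Sertoli cells tied it to proliferation and apoptosis through RMI1, a partner of the BLM helicase. Its entry carries no arm. It stood at 176.47, 176.66 and 158.04 TPM in the AA2P libraries and at 120.57, 133.63 and 126.07 TPM in the control libraries. Every AA2P library was above every control library. The means were 170.4 ± 10.7 TPM with AA2P and 126.8 ± 6.56 TPM in controls, a ratio of 1.34, and the log2 fold change was 0.42 (SE 0.0846, limma, adjusted p = 0.0156). The call ended without control replicate 1 (adjusted p = 0.0514) and without control replicate 3 (adjusted p = 0.0646).

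miR-500-5p is 1 of the 2 arms of miR-500, whose human counterpart represses CYLD, a deubiquitinase that restrains NF-κB signalling; human miR-362-5p does so as well. It stood at 177.4, 167.74 and 165.68 TPM in the AA2P libraries and at 110.46, 122.59 and 133.23 TPM in the control libraries. The AA2P libraries were again all above the controls, and the control values were the more spread. The means were 170.3 ± 6.26 TPM with AA2P and 122.1 ± 11.4 TPM in controls, a ratio of 1.39, and the log2 fold change was 0.48 (SE 0.0932, limma, adjusted p = 0.0138). This call held when any 1 library was left out (limma, adjusted p = 0.0250 to 0.0415). In human the 5p arms of these hairpins begin with nearly the same bases. How any reads shared by such products were assigned is not given in the sources used here. Pig sequences were not compared, so whether miR-362 and miR-500-5p share reads was not tested. The values of miR-362 and miR-500-5p may be less certain than their depth implies. The same holds for the miR-500 arms beside those of miR-501 and miR-502.

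**Figure D1:**
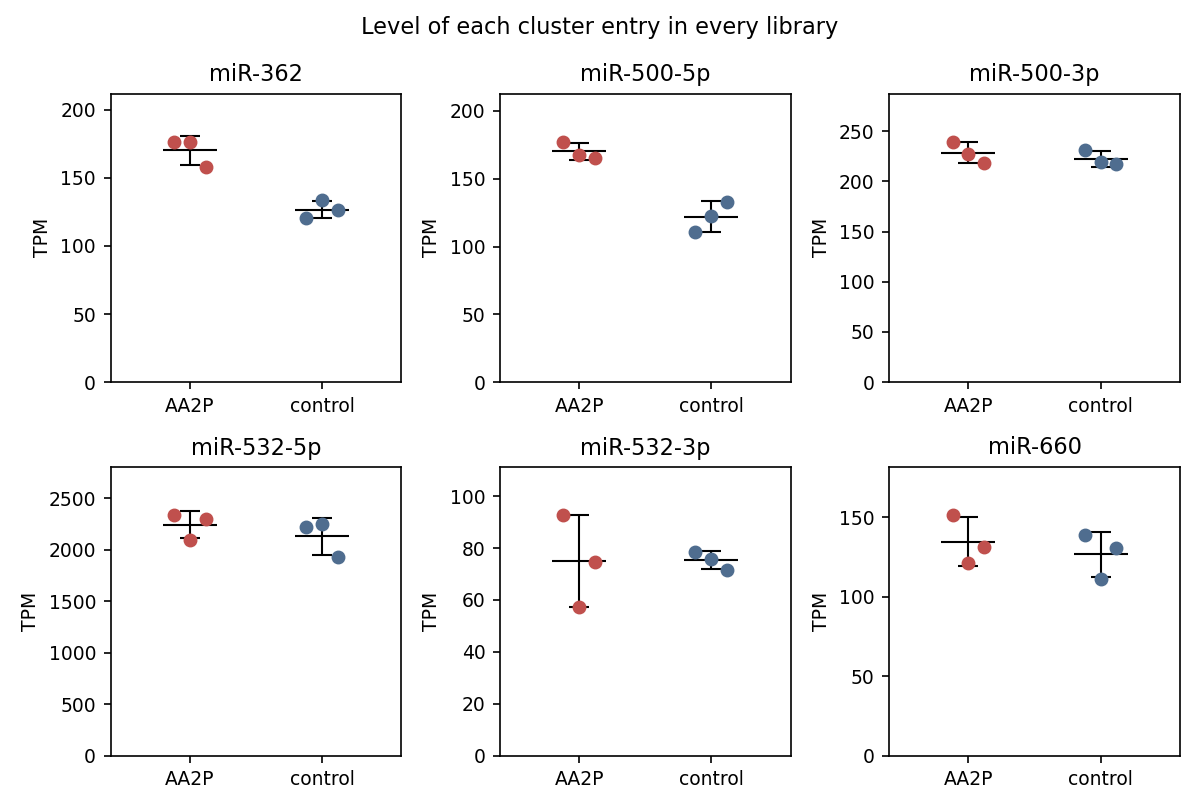
TPM of each of the 6 entries in the 3 AA2P (red) and 3 control (blue) libraries; points are libraries and bars are mean ± SD, with each axis starting at 0. The groups separate for miR-362 and miR-500-5p and overlap for the other 4 entries.

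The other arm of the same hairpin, miR-500-3p, stood at 239.7, 227.53 and 218.78 TPM in the AA2P libraries and at 231.72, 218.91 and 217.46 TPM in the control libraries. The groups overlapped almost entirely. Its log2 fold change was 0.04, with a 95% interval of -0.14 to 0.22 (limma, adjusted p = 0.708). The interval lies below both the change of its partner arm and the median change of all entries tested, 0.25.

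miR-532-5p, which in human represses the transcription factor RUNX3, was the most abundant member and ranked 43 of 1645 by mean TPM. It stood at 2338, 2101 and 2302 TPM in the AA2P libraries and at 2222, 2253 and 1928 TPM in the control libraries. AA2P replicate 2 and control replicate 3 were the low libraries, and the groups overlapped. The log2 fold change was 0.08 (95% interval -0.14 to 0.29, limma, adjusted p = 0.550). Its partner arm, miR-532-3p, stood at 92.7, 57.24 and 74.71 TPM in the AA2P libraries and at 78.44, 75.76 and 71.61 TPM in the control libraries. The AA2P libraries enclosed the controls on both sides, with a coefficient of variation of 23.7% in the AA2P libraries and 4.57% in the control libraries. The log2 fold change was -0.03 with a wide 95% interval of -0.47 to 0.40 (limma, adjusted p = 0.897), and it was 0.14 without AA2P replicate 2.

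miR-660, whose human 5p arm represses MDM2, the ubiquitin ligase of p53, stood at 151.39, 121.48 and 131.32 TPM in the AA2P libraries and at 138.65, 111.18 and 130.72 TPM in the control libraries. In both groups the library numbered 2 was the lowest. The log2 fold change was 0.09 (95% interval -0.22 to 0.39, limma, adjusted p = 0.615). For none of these 4 members was a call made in the deposited TPM, and all 4 intervals end below 0.42, the value of miR-362. The 95% interval of miR-362 itself, 0.22 to 0.63, overlaps those of miR-532-5p, miR-532-3p and miR-660. A difference of these members from miR-362 was not tested.

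The order of the members by level was the same at its ends in both groups. miR-532-5p was far above and miR-532-3p at the bottom, and miR-500-3p was second. In the AA2P libraries miR-362 and miR-500-5p came next, at nearly equal means, with miR-660 below them at 134.7 ± 15.2 TPM. In the control libraries miR-660 stood at 126.9 ± 14.1 TPM, and these 3 could not be put in order, since their ranges overlapped.

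Both calls, and the directions of miR-500-3p, miR-532-5p and miR-660, depended on how libraries were put on 1 scale. With 5 other scalings the median over all entries moved by -0.17 to -0.27 on the log2 scale. The changes of miR-362 and miR-500-5p stayed above 0 under each of them but no longer passed: they were 0.13 to 0.23 for miR-362 (limma, adjusted p = 0.102 to 0.363) and 0.19 to 0.29 for miR-500-5p (limma, adjusted p = 0.0948 to 0.298). Totals without miR-21-5p gave 0.13 and 0.19. The other 4 members lay below 0 under all 5. miR-500-3p was called lower with trimmed-mean scaling (log2 fold change -0.24, limma, adjusted p = 0.0227) and with median-of-ratios scaling (-0.23, adjusted p = 0.0266). It was not called with quantile normalization or with either set of reduced totals (adjusted p = 0.0719 to 0.688). Members called were thus 1 of 6 with the first 2 scalings, where 22.6% of all tested entries were called under each. They were 0 of 6 with quantile normalization (20.1% of all entries), without miR-21-5p (19.2%) and without the 10 most abundant entries (20.3%). At an unadjusted limma p under 0.05, miR-362 and miR-500-5p passed as higher with quantile normalization and without the 10 most abundant entries, and miR-500-3p passed as lower without miR-21-5p. In the deposited TPM, both calls also ended with no filter on low values (limma, adjusted p = 0.0609 for miR-362 and 0.0534 for miR-500-5p).

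**Figure D2:**
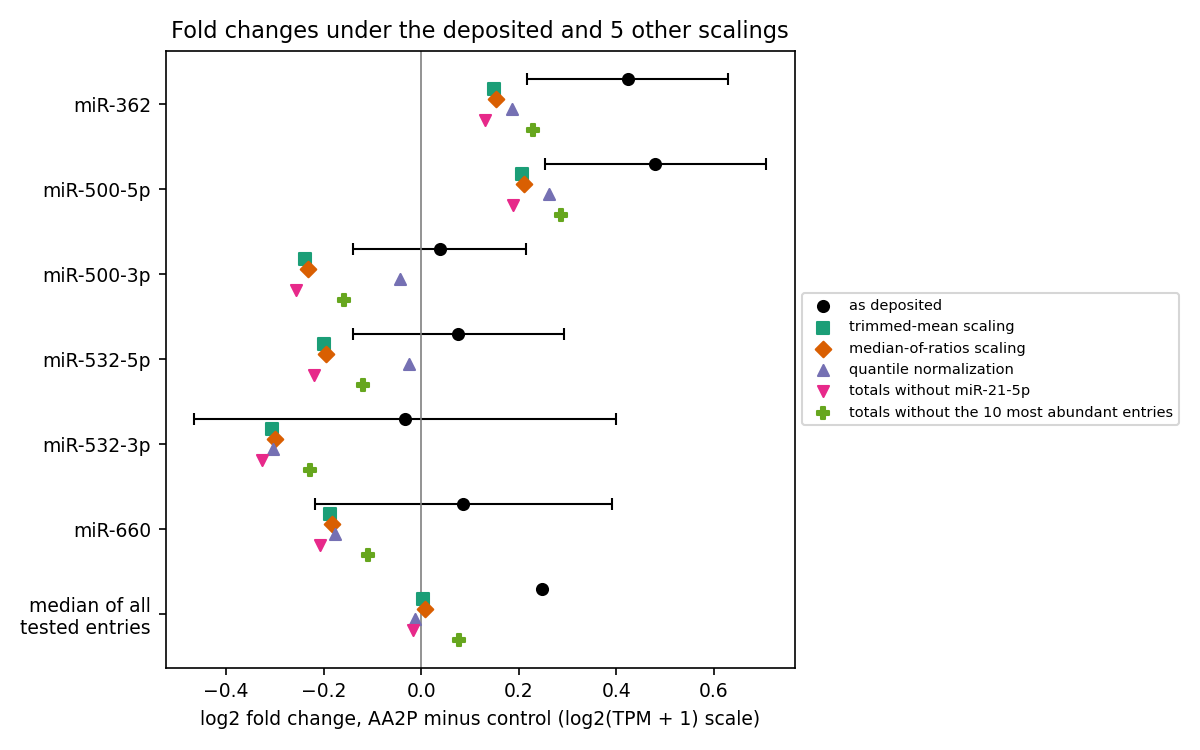
Log2 fold change, AA2P minus control, of each entry and of the median tested entry (horizontal axis) under the deposited scale (black, with 95% intervals) and 5 other scalings (symbols). miR-362 and miR-500-5p stay above 0 under all 6, while miR-500-3p, miR-532-5p and miR-660 are above 0 in the deposited TPM alone.

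Ratios of members within a library are free of any factor that scales the whole library, and they fell into 2 sets. The ratio of miR-362 to miR-500-5p hardly moved: its log2 value was 0.00 ± 0.0713 with AA2P and 0.06 ± 0.117 in controls. Ratios among miR-500-3p, miR-532-5p, miR-532-3p and miR-660 likewise differed between groups by -0.12 to 0.11. Ratios of miR-362 or miR-500-5p to any of these 4 were higher with AA2P by 0.34 to 0.51 on the log2 scale. Of these 8 ratios, 7 did not overlap between groups; the exception was miR-362 to miR-660, at 0.22, 0.54 and 0.27 in the AA2P libraries and -0.20, 0.26 and -0.05 in the control libraries. None of the 7 ratios inside a set separated the groups. The sets were drawn after the values were seen. Over all 15 ratios, 7 separated the groups, close to the 39.6% found for all pairs of tested entries, so the share itself is no result about the cluster.

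Each member's level relative to the cluster median of its library restates these ratios and adds no separate evidence. In the AA2P libraries that median is the midpoint of miR-362 and miR-500-5p. With AA2P minus control, miR-500-3p stood lower by that measure (-0.35), as did miR-532-5p (-0.31), miR-532-3p (-0.42) and miR-660 (-0.30), while miR-362 and miR-500-5p differed by 0.03 and 0.09. Against the summed TPM, in which miR-532-5p dominates, miR-362 and miR-500-5p stood higher by 0.32 and 0.37 and the other 4 were between -0.14 and -0.02.

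The 2 arms of miR-500 stood closer to balance in the AA2P libraries, by a difference that did not pass the test. The log2 ratio of 5p over 3p was -0.43, -0.44 and -0.40 in the AA2P libraries and -1.06, -0.83 and -0.70 in the control libraries. All AA2P values were above all control values and lay much closer to each other. The 3p arm thus exceeded the 5p arm 1.34-fold with AA2P and 1.82-fold in controls. The difference of 0.44 (SE 0.146) had an unadjusted p of 0.0101 by limma, the smallest of the 39 hairpins tested. It did not pass over them (limma, adjusted p = 0.282), nor in any of the alternatives run (limma, adjusted p = 0.0638 to 0.643). None of the hairpins was called, and 4 of them, 10.3%, had an unadjusted p under 0.05 by limma. Separation of the groups was not particular to miR-500. It was also seen for miR-28, miR-7134, miR-140, miR-30e, miR-671, miR-30a and miR-139, higher with AA2P, and for miR-374b, lower. The miR-500 ratio reuses the miR-500-5p values tested above and is no independent measure of them.

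miR-532 strongly preferred 1 arm. Its 5p arm exceeded the 3p arm 30.1-fold with AA2P and 27.9-fold in controls. The log2 ratio was 4.64, 5.17 and 4.93 in the AA2P libraries and 4.81, 4.88 and 4.73 in the control libraries, with the groups overlapping. The difference of 0.11 did not pass (limma, adjusted p = 0.789) and was -0.02 without AA2P replicate 2, the library with the lowest miR-532-3p.

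**Figure D3:**
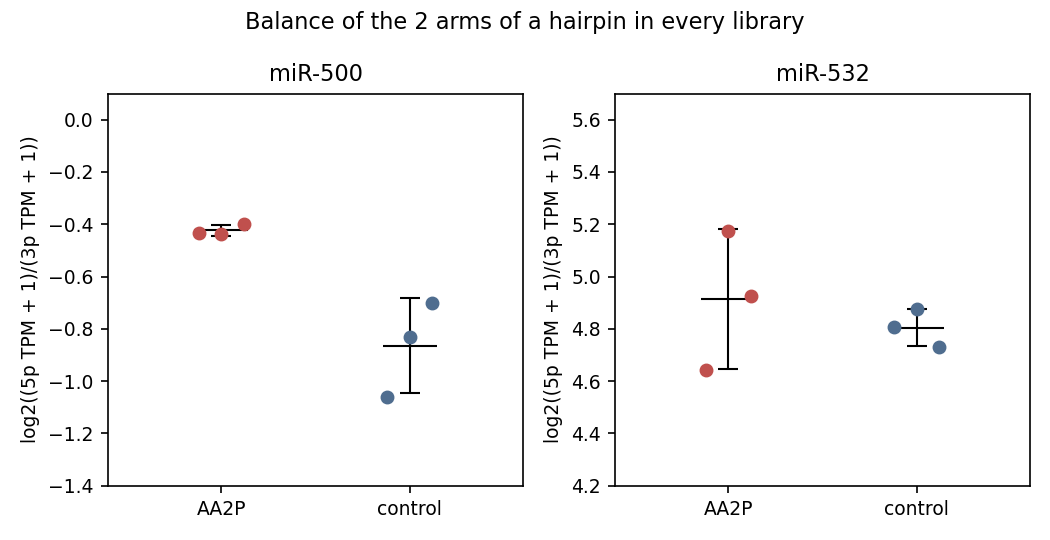
Log2 ratio of 5p over 3p of miR-500 (left) and miR-532 (right) in the 3 AA2P (red) and 3 control (blue) libraries, with mean ± SD; the vertical axes do not start at 0 and differ in position. The groups separate for miR-500 and overlap for miR-532.

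Other X-linked clusters were set beside this one as background, in the deposited TPM, where 19.9% of all tested entries were called higher. The cluster of miR-424, miR-503, miR-450 and miR-542 had 8 of 10 tested entries called, all 8 higher, with a median log2 fold change of 0.80. Of the cluster of miR-374, miR-421 and miR-545, 3 of 6 tested entries were called, all 3 higher, with a median of 0.29. The pair miR-221 and miR-222, also X-linked, had 3 of 3 entries called lower, where 4.85% of all tested entries were, with a median of -1.10. The members described here had a median of 0.08 and a range of -0.03 to 0.48. Over the 24 tested entries that RefSeq places on chromosome X alone, these members left out, 8 were called higher and 3 lower, with a median of 0.27. This list is no separate background, since it holds entries of the 3 clusters above, and all of its calls are theirs. Entries of miR-424 and miR-503 are not in it, since RefSeq does not place them. Its remaining entries were not called (limma, adjusted p = 0.268 to 0.779). These are descriptions of the lists, and no difference between them was tested.

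**Figure D4:**
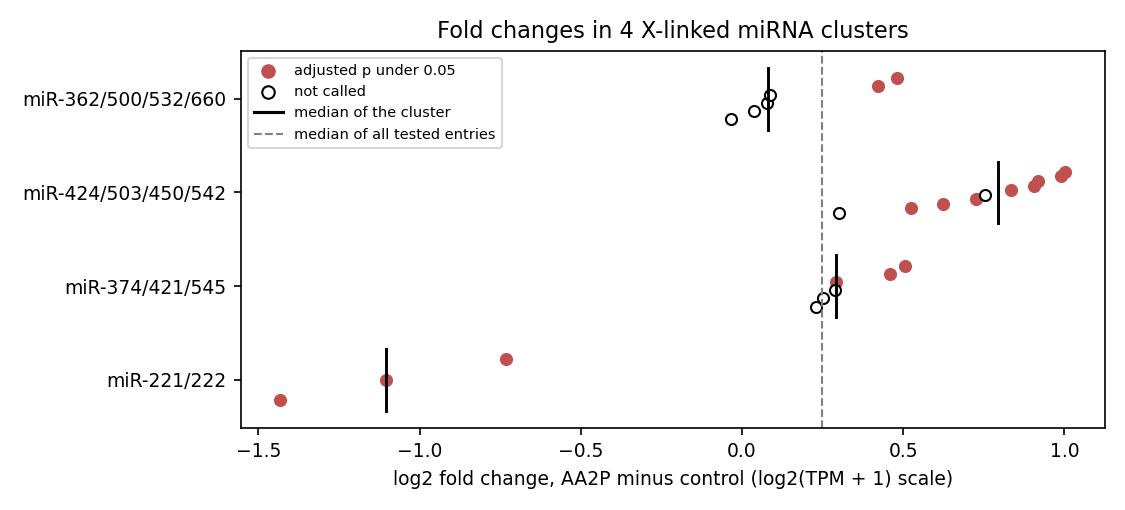
Log2 fold change, AA2P minus control (horizontal axis), of the tested entries of 4 X-linked clusters; red points were called by limma, open points were not, short bars are cluster medians and the dashed line is the median of all tested entries, 0.25. The entries of the cluster described here, in the top row, lie between -0.03 and 0.48.

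Among 243 entries outside the cluster with a mean of at least 10 TPM, those whose log2 levels over the 6 libraries most resembled the mean of the members were miR-27b-3p (Pearson's r = 0.99), miR-34c (0.98) and miR-425-3p (0.98). The mean log2 level of the members was 7.98, 7.76 and 7.82 in the AA2P libraries and 7.69, 7.67 and 7.66 in the control libraries. The groups are apart on it, so r over all 6 also carries that gap, and all entries share the libraries and their totals. The gap is one of the deposited TPM. There the median log2 fold change of the members was 0.08, and under the other scalings it was -0.21 to -0.03. Likeness under those scalings was not tested. miR-27b-3p stood at 11912, 9439 and 9742 TPM in the AA2P libraries and at 8554, 8606 and 8451 TPM in the control libraries. Like the members' mean, it was highest in AA2P replicate 1.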

How the data were processed

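Small RNA was read in 6 libraries. The authors deposited 1 table of TPM, with 1645 entries (358 known miRNAs, 1287 predicted ones) rounded to 2 decimals. Per the submitters' processing notes Bowtie was used, its step and version unstated. Genome build, miRBase release, mismatches and the assignment of shared reads: not given in the sources used here. Low values step by 1 amount per library: 97.2 to 100% of values under 8 TPM were whole reads to within 0.0051 TPM (26.4 to 36.7% from rounding alone). TPM were still tested on a log scale, without a count test. The floor of 3 reads is 0.0834 to 0.116 TPM; depth covers counting error only. Within groups, chi-square per degree of freedom between 2 libraries was 144 to 1175, more than sampling noise, so none was counted as a second deposit of another library; technical repeats of 1 culture are not excluded by this.

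The 433 entries that reached 1 TPM in 3 or more of the 6 libraries were tested by limma 3.58.1 in R 4.3.3 with a mean-variance trend on log2(TPM + 1), a scale that understates changes of low entries; p-values are two-sided and adjusted by Benjamini-Hochberg over all 433. Arm ratios used hairpins with both arms at a mean of at least 10 TPM. Sums, ratios of members and likeness were described without a test. All members were named, with 3 other X-linked clusters, marker lists and the 3 entries most alike. A planned listing of outside miRNAs with shared seeds was not run. RefSeq placed 308 of 358 known entries. Scripts were tested on simulated data. The members and lists were chosen with earlier results of these data known.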

Additional observations from a re-analysis of the deposited data

How the results depend on the processing

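Of 18 alternatives, miR-362 was called in 9 and miR-500-5p in 11, always as higher; the other 4 members were not called as higher in any. The count of members called was 2 as deposited, 1 (lower) with trimmed-mean and with median-of-ratios scaling, 0 with quantile normalization, with either set of reduced totals, with no filter on low values and with the replicate block (2 and 2 at an unadjusted limma p under 0.05 in these last settings), and 1 to 2 with 1 library left out. The count over all entries was 107 as deposited, 57 with no filter, 63 with the block and 63 to 97 with 1 library left out, lowest without control replicate 3. The block used the library number, and the deviations of same-numbered libraries correlated at 0.29, 0.06 and 0.18, which does not show pairing; with it the adjusted p by limma was 0.0568 for miR-362 and 0.0596 for miR-500-5p. With no filter 0.0609 and 0.0534 were obtained, over more entries tested.

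Changes of sign are given in the order trimmed-mean scaling, median-of-ratios scaling, quantile normalization, totals without miR-21-5p and totals without the 10 most abundant entries. The log2 fold change was -0.24, -0.23, -0.043, -0.26 and -0.16 for miR-500-3p, -0.20, -0.19, -0.025, -0.22 and -0.12 for miR-532-5p, and -0.19, -0.18, -0.18, -0.21 and -0.11 for miR-660. The log2 ratio of the mean summed TPM, 0.11 as deposited, was -0.17, -0.16, -0.014, -0.18 and -0.087, and 0.06 to 0.15 with 1 library left out. With 1 library left out the log2 fold change was -0.0049 to 0.16 for miR-660 (-8.0e-05 without AA2P replicate 1), -0.20 to 0.14 for miR-532-3p and 0.0044 to 0.12 for miR-532-5p, and the miR-532 arm ratio differed by -0.020 to 0.25. Hairpins called for arm use were 0 to 3 with 1 library left out, 3 without control replicate 2 and neither miR-500 nor miR-532 among them. The cause of these moves was not tested beyond what each scaling does to the median of all entries. The coefficient of variation of the members between libraries, 3.52 to 23.7%, exceeded the at most 2.22% that counting error alone gives.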
